A study of Mus musculus with 6 samples.

Results

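The MHC class II genes encode the proteins that display peptides to CD4 T cells, together with the factors that load those peptides and control the genes. Of the 10 genes named for the set, 9 had a value of their own among the 22180 genes measured on the arrays. A value was taken where a probe set was annotated to exactly 1 gene symbol. The brightest such probe set over the 6 arrays stood for the gene. Each of the 9 had only 1 such probe set, and H2-Oa also had 1 shared with another symbol, which was not used. The measured genes were H2-Aa, H2-Ab1, H2-Eb1 and H2-Eb2 (chains of the displayed molecules), H2-DMa and H2-DMb1 (the loading factor DM), H2-Oa and H2-Ob (its inhibitor DO) and Ciita (the class II transactivator). The invariant chain gene Cd74 had no probe set annotated to it alone, only 1 shared with a microRNA gene, and is given no value. H2-Eb2, for which the set was named, was chosen by its difference in log2 signal between white adipose and non-adipose arrays, so the site differences of the 9 genes are given as a description, with no test.

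The tumours were mouse colorectal cancers (CRC) grown from injected cancer cells and collected at 1 to 1.5 cm3. White adipose tissue, the main fat store, was the site of 3 tumours, and non-adipose tissue the site of 3. Each tumour came from its own mouse, per the series' design text, and was hybridised to its own Affymetrix whole-transcript array. The strain, age, sex and cancer cell line, the non-adipose site and the fat depot are not given in the labels used here. Every tumour was a whole piece of tissue, so fewer cells of a type and less RNA per cell cannot be told apart.

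A class II molecule is a pair of an alpha and a beta chain, held by the invariant chain until cathepsins cut that chain down in endosomes. DM then exchanges the remaining fragment for a peptide, and DO holds DM back. Dendritic cells, B cells and macrophages are the main cells that show class II molecules, and interferon-gamma can switch the genes on in many other cells. Transcription of the class II genes runs largely through CIITA, which is recruited to the promoters by proteins bound at the X and Y boxes. These are the RFX complex and CREB at the X box, and NF-Y at the Y box.

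The promoters are shown first, because the chain genes are controlled together through these boxes while H2-Eb2 had the largest difference between sites among the 9. RefSeq gave a promoter window for 7 of the 9 genes with a value, in build GRCm38.p6, all on chromosome 17; the 250 bases before the annotated start are given 5′ to 3′ on the gene's own strand for 3 of the chains. Capitals mark the letters CNNGNAAC, a stretch at the X box, and GATTGG, the Y box, where they followed each other on the gene's strand with 15 to 35 bases between.
H2-Eb2, chr17:34325425-34325674, plus strand: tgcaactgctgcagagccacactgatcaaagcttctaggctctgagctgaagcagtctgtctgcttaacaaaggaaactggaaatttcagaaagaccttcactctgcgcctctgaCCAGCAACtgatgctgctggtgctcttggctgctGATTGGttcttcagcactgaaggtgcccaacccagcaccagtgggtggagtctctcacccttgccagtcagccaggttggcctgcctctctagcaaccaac
H2-Eb1, chr17:34305617-34305866, plus strand: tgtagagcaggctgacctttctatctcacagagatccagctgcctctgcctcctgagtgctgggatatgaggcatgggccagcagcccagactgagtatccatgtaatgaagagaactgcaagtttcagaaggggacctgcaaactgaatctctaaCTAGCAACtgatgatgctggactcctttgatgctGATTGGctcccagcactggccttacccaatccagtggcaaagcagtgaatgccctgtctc
H2-Aa, chr17:34287824-34288073, minus strand: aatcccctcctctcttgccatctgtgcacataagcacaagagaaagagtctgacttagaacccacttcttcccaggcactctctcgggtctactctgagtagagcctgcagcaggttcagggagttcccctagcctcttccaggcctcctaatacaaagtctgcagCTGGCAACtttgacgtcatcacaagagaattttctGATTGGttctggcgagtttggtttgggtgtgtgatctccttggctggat

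In H2-Eb2 and in H2-Eb1 the 2 motifs were 26 bases apart. Over the 40 bases that run from the first to the last capital, these 2 promoters shared 32 bases (80.0%). The H2-Eb2 pair ended 95 bases before the annotated start, against 54 bases in H2-Eb1 and 43 bases in H2-Aa. The same pair was present in the windows of H2-Ob, H2-Oa and H2-DMb1, where only the stretch between the outer capitals is shown.
H2-Ob, chr17:34238815-34238852, plus strand: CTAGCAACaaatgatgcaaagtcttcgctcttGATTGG
H2-Oa, chr17:34092300-34092340, plus strand: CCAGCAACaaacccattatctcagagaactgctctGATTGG
H2-DMb1, chr17:34153094-34153134, plus strand: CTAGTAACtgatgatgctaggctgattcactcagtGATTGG

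The pair was thus found in 6 of the 7 genes with a window; neither of the 2 windows of H2-DMa held these letters in that arrangement, which says nothing about binding there. Searched on both strands of all 32851 RefSeq promoter windows cut to 250 bases, CNNGNAAC was present in 33.3%, GATTGG in 14.6% and the pair in 0.225% (74 windows). The letters were chosen with the class II promoters in view, so the difference in frequency is a description. The 2 motifs were not allowed to overlap.

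H2-Eb2, a beta chain gene of the E type (probe set 17336509), had log2 signals of 6.06, 7.11 and 6.97 in white adipose replicates 1, 2 and 3, against 5.29, 4.80 and 5.54 in non-adipose replicates 1, 2 and 3. All 3 white adipose tumours were above all 3 non-adipose tumours. The gene averaged 6.71 ± 0.57 in white adipose tumours and 5.21 ± 0.38 in non-adipose tumours (SD, n = 3 each). The difference was 1.50 on the log2 scale (SE 0.32, 95% interval 0.71 to 2.29), which is 2.83-fold, and 10 of the 22180 genes had a larger one. Within its own array, the H2-Eb2 signal lay above 51.9%, 66.7% and 65.1% of genes in white adipose replicates 1 to 3, against 37.1%, 26.5% and 41.9% in non-adipose replicates 1 to 3. The arrays came with no detection call, so whether the non-adipose signals stood above background was not tested.

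H2-Eb1, the classical E beta chain gene (probe set 17336502), read 9.67, 10.81 and 10.73 in white adipose tumours, against 9.87, 8.57 and 10.48 in non-adipose tumours. The groups overlapped: white adipose replicate 1 was lower than non-adipose replicates 1 and 3, and non-adipose replicate 2 was the lowest of all. The means were 10.41 ± 0.63 in white adipose and 9.64 ± 0.97 in non-adipose tumours (SD, n = 3 each). The log2 difference of 0.77 (SE 0.54, 95% interval -0.56 to 2.10) was smaller than the spread among the non-adipose tumours.

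The A molecule showed the same picture in both of its chains. H2-Aa, the A alpha chain gene (probe set 17343813), had log2 signals of 10.14, 11.12 and 11.05 in white adipose tumours, against 10.31, 9.08 and 10.84 in non-adipose tumours. H2-Ab1, its beta chain partner (probe set 17336494), had 11.17, 12.35 and 12.23 in white adipose tumours, against 11.46, 10.31 and 11.99 in non-adipose tumours. In both genes white adipose replicates 2 and 3 were highest, non-adipose replicate 2 was lowest and the groups overlapped. H2-Aa differed by 0.70 (SE 0.49) and H2-Ab1 by 0.66 (SE 0.50) on the log2 scale, each less than its SD among non-adipose tumours (0.90 and 0.86).

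**Figure D1:**
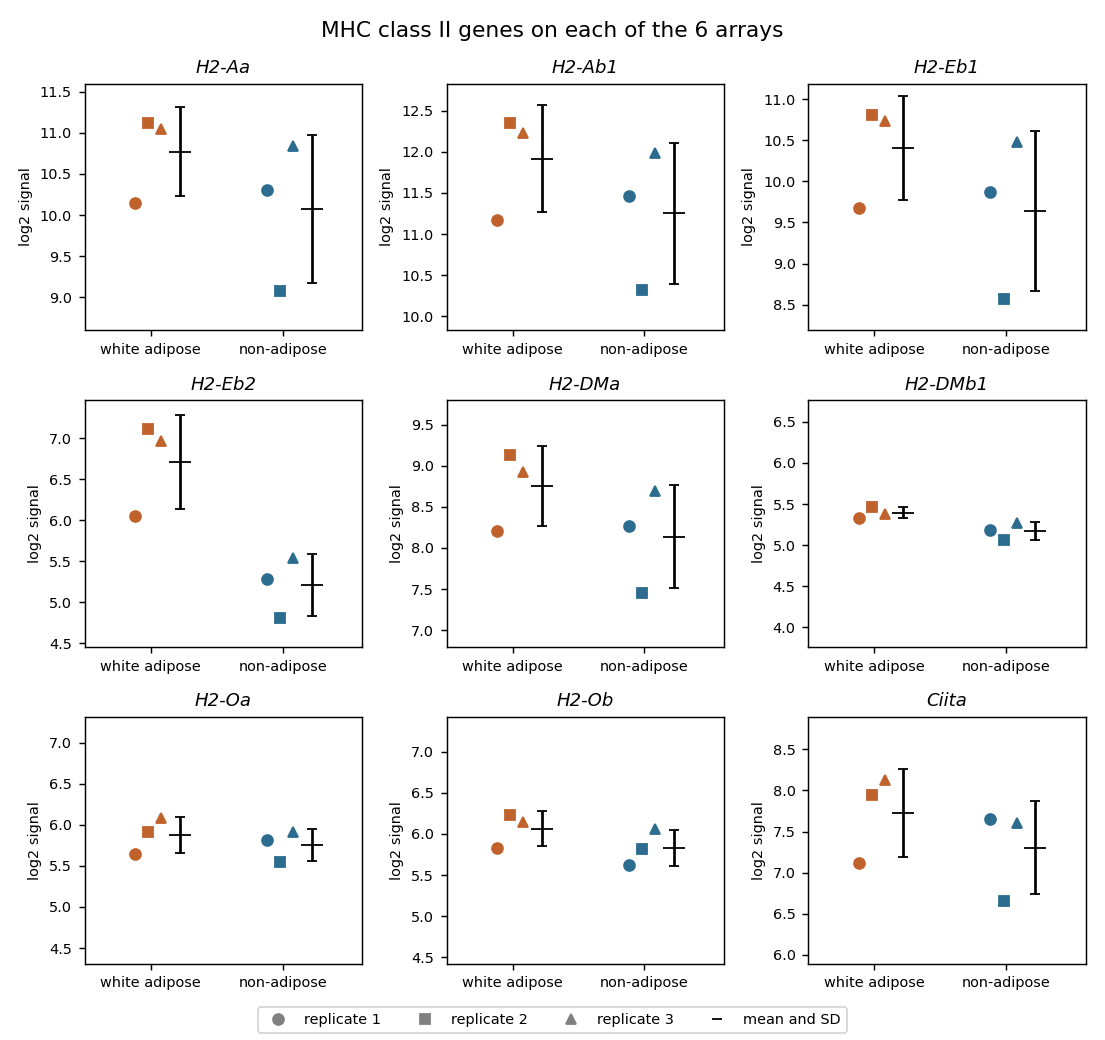
Each panel plots the log2 signal of 1 gene in the 3 white adipose tumours (left) and the 3 non-adipose tumours (right), 1 symbol per replicate, with the group mean and SD as a black bar; every panel spans 3.0 log2 units at its own level. H2-Eb2 and H2-DMb1 are the 2 genes in which no non-adipose tumour reached a white adipose tumour.

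The 2 chain genes of DM, the factor that loads peptides, differed in how far they varied. H2-DMa, the alpha chain gene (probe set 17336407), had log2 signals of 8.20, 9.14 and 8.92 in white adipose tumours, against 8.27, 7.45 and 8.70 in non-adipose tumours. It overlapped between groups and differed by 0.61 (SE 0.38), 1.53-fold. H2-DMb1, a beta chain gene (probe set 17336422), had 5.34, 5.46 and 5.38 in white adipose tumours, against 5.19, 5.06 and 5.27 in non-adipose tumours. Its groups did not overlap, yet the whole range over the 6 arrays was 0.41 log2 units, against 1.68 for H2-DMa. The H2-DMb1 difference was 0.22 (SE 0.077), 1.17-fold.

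H2-DMb2, a near copy of H2-DMb1 that is not in the set and was looked at after its values were seen, had log2 signals of 6.51, 7.17 and 7.59 in white adipose tumours, against 6.68, 5.87 and 6.74 in non-adipose tumours. Its range over the arrays was 1.72 log2 units and its difference 0.66 (SE 0.34, limma adjusted p = 0.936), or 0.37 with non-adipose replicate 2 left out. The groups overlapped. Transcripts of near copies can bind each other's probes, so the values of both DM beta genes are uncertain. H2-Ea, the gene of the E alpha chain, which C57BL/6 mice do not make, was also looked at after the fact: it had log2 signals of 4.02, 4.20 and 4.20 in white adipose tumours, against 4.29, 4.24 and 4.13 in non-adipose tumours. That was close to level on all 6 arrays, at percentile 15.9 for mean brightness among all genes.

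The DO genes varied little over the arrays. H2-Ob, the DO beta chain gene (probe set 17336476), had log2 signals of 5.83, 6.23 and 6.14 in white adipose tumours, against 5.62, 5.82 and 6.06 in non-adipose tumours. H2-Oa, the DO alpha chain gene (probe set 17336396), had 5.65, 5.91 and 6.08 in white adipose tumours, against 5.81, 5.54 and 5.92 in non-adipose tumours. Both overlapped between groups. The log2 differences were 0.23 (SE 0.15) for H2-Ob and 0.12 (SE 0.15) for H2-Oa.

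Ciita, the transactivator gene on chromosome 16 (probe set 17322842), had log2 signals of 7.12, 7.94 and 8.13 in white adipose tumours, against 7.65, 6.66 and 7.60 in non-adipose tumours. White adipose replicates 2 and 3 were the highest and non-adipose replicate 2 the lowest, while white adipose replicate 1 lay below the other two non-adipose tumours. Ciita averaged 7.73 ± 0.54 in white adipose and 7.30 ± 0.56 in non-adipose tumours (SD, n = 3 each), a log2 difference of 0.43 (SE 0.37).

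All 9 genes had a higher mean in white adipose tumours, where 49.8% of all genes did, and their median log2 difference was 0.61, against -0.00043 over all genes. Groups did not overlap, with white adipose higher, in 2 of the 9 and in 3.34% of all genes. As the set was named with this contrast in view and its genes varied together over the arrays, neither figure is evidence of a site effect. In limma across all genes, 0 of 22180 (0%) passed an adjusted p of 0.05 in either direction, the smallest adjusted p being 0.936, and 841 (3.79%) had an unadjusted p under 0.05, 368 (1.66%) higher and 473 (2.13%) lower.

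One non-adipose tumour carried much of the difference in the chain genes. Without non-adipose replicate 2, the log2 difference was 0.20 for H2-Aa, 0.19 for H2-Ab1, 0.24 for H2-Eb1, 0.27 for H2-DMa, 0.10 for Ciita and 0.015 for H2-Oa, and the median over the 9 genes was 0.20. H2-Eb2 was at 1.30 and H2-DMb1 at 0.17 without that tumour. H2-Eb2 ran from 1.30 to 1.83 whichever array was left out. Leaving out a white adipose tumour moved some genes past 1.5 times as well. With replicate 1 left out, H2-Ab1 was at 1.04, H2-Oa at 0.24, H2-Ob at 0.35 and Ciita at 0.73. With replicate 2 left out, H2-Ob was at 0.16, and with replicate 3 left out, Ciita was at 0.23 and H2-Oa at 0.023. Leaving out non-adipose replicate 1 put H2-Ob at 0.13, and leaving out non-adipose replicate 3 put H2-Aa at 1.08, H2-Ab1 at 1.03, H2-Eb1 at 1.19 and H2-Oa at 0.20.

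**Figure D2:**
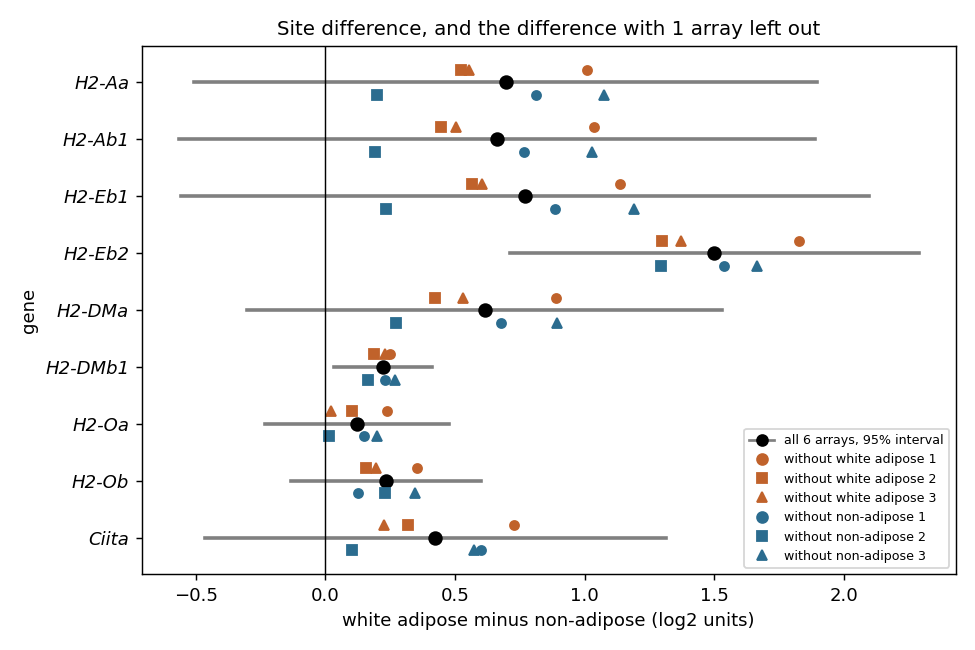
Black points are the white adipose minus non-adipose difference of each gene in log2 units with limma's 95% interval (grey), and coloured symbols are the difference with 1 array left out (orange above the line, a white adipose array; blue below it, a non-adipose array). The blue squares, without non-adipose replicate 2, lie near 0.2 for the chain genes H2-Aa, H2-Ab1 and H2-Eb1 and at 1.30 for H2-Eb2.

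The 9 genes were also compared by their order over the tumours, whatever the group. H2-Aa, H2-Ab1, H2-Eb1 and H2-DMa put the 6 tumours in a single order: non-adipose replicate 2 lowest, then white adipose replicate 1, non-adipose replicates 1 and 3, and white adipose replicates 3 and 2. Non-adipose replicate 2 was the lowest tumour for 8 of the 9 genes, and white adipose replicate 2 the highest for 7. Pearson's r over the 6 arrays, given as a description, was 0.995 to 0.999 among H2-Aa, H2-Ab1 and H2-Eb1, and 0.942 between H2-Aa and Ciita. The lowest of the 36 pairs was H2-Ob with Ciita, at 0.572. All pairs share the same 6 arrays.

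H2-Eb2 followed the same order within each group but not across groups. Its r with H2-Aa, H2-Ab1 and H2-Eb1 was 0.804 to 0.810. H2-DMb1 put the 6 tumours in the same order as H2-Eb2, with an r of 0.954 between them, over a far smaller range. Set against its own mean over the 6 arrays, H2-Eb2 stood at 0.09, 1.15 and 1.01 log2 units in white adipose replicates 1 to 3 and at -0.68, -1.16 and -0.42 in non-adipose replicates 1 to 3. The mean of the other 3 chain genes, centred alike, stood at -0.35, 0.75 and 0.66 in white adipose tumours and at -0.13, -1.36 and 0.42 in non-adipose tumours. H2-Eb2 therefore lay above that mean by 0.44, 0.40 and 0.35 in the white adipose tumours. In the non-adipose tumours it departed by -0.54, 0.20 and -0.84. Its centred value was thus below the centred mean of the other chains in replicates 1 and 3 and above it in replicate 2. The log2 signal of H2-Eb2 itself was below those of the other chains on every array. These values come from the contrast that named the gene and were not tested.

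**Figure D3:**
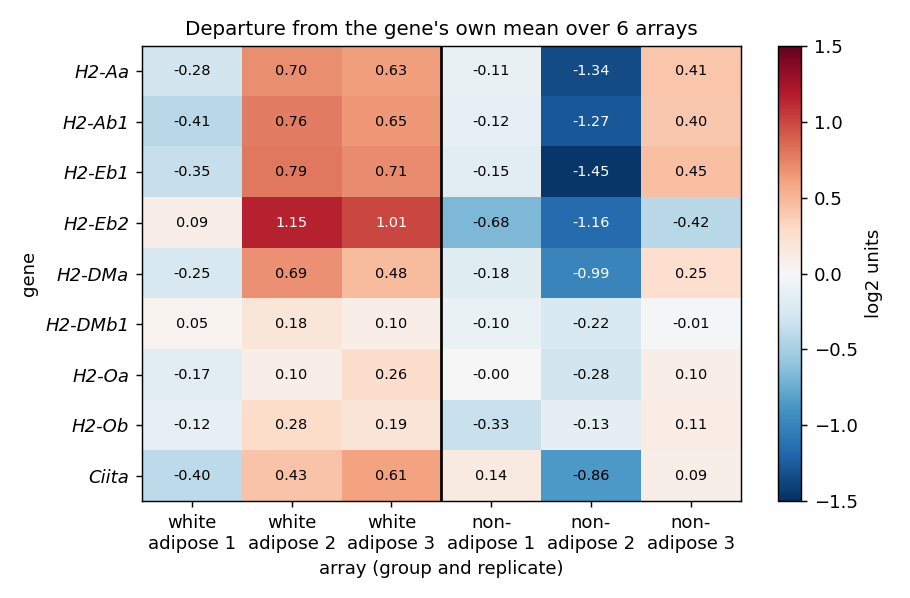
Each cell gives a gene's log2 signal in 1 tumour minus its mean over the 6 arrays (red above, blue below), with the 3 white adipose tumours left of the line and the 3 non-adipose tumours right of it. The rows of H2-Aa, H2-Ab1, H2-Eb1 and H2-DMa repeat each other, whereas H2-Eb2 and, by smaller amounts, H2-DMb1 are below their means in all 3 non-adipose tumours.

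Among other genes, likeness was measured by Pearson's r over the 6 arrays, over 1912 genes at or above the median signal and with an SD over the arrays of at least 0.2. The 5 most like H2-Aa were AW112010 (r = 0.995), Dnase1l3 (0.993), Pla1a (0.992), Sema4d (0.985) and Exoc6 (0.984). The 5 most like H2-Eb2 were Ccdc125 (r = 0.958), Oxr1 (0.954), Hmgcll1 (0.953), Bmp5 (0.951) and Naglu (0.948). No gene was on both lists, and r above 0.9 was reached by 110 genes with H2-Aa and by 23 with H2-Eb2. H2-Eb2 was chosen by its site difference, so genes ranked by likeness to it over the same arrays tend to share that difference. Over 6 arrays and 1912 genes, high values of r also arise by chance, and how many did so was not tested. Both lists are therefore a description only. Bmp5, a bone morphogenetic protein gene, had log2 signals of 5.49, 7.59 and 7.57 in white adipose tumours, against 5.01, 4.93 and 5.72 in non-adipose tumours. It overlapped between groups, as white adipose replicate 1 lay below non-adipose replicate 3.

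The genes that control class II transcription were near level between sites. Of the 15 on the list, 6 had a higher and 9 a lower mean in white adipose tumours, with log2 differences from -0.10 to 0.16. Rfx5, a subunit of the X box complex, had log2 signals of 7.59, 7.70 and 7.63 in white adipose tumours, against 7.70, 7.58 and 7.78 in non-adipose tumours. It differed by -0.047 (SE 0.075, limma adjusted p = 0.951). The 3 with the smallest p were Prdm1, a repressor that silences Ciita in plasma cells, at 0.13 (SE 0.069), Bcl6, a repressor of germinal centre B cells, at 0.15 (SE 0.11; 0.067 to 0.25 with 1 array left out), and Irf4, a lymphoid transcription factor gene, at -0.10 (SE 0.12).

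Genes of antigen processing and of class II turnover were measured for all 14 on that list, 9 with a higher and 5 with a lower mean in white adipose tumours. Marchf8, whose ligase sends class II molecules to lysosomes, differed by 0.15 (SE 0.063) and its groups did not overlap. The protease genes Ctsl and Ctss, which cut the invariant chain, differed by 0.32 (SE 0.15) and 0.19 (SE 0.25) on the log2 scale. With 1 array left out, Ctsl ran from 0.19 (white adipose replicate 1) to 0.42 and Ctss from 0.0083 (non-adipose replicate 2) to 0.39 (non-adipose replicate 3). Ctss had log2 signals of 11.16, 11.81 and 11.73 in white adipose tumours, against 11.32, 11.02 and 11.79 in non-adipose tumours, with non-adipose replicate 2 lowest again. Sppl2a, which clears the last invariant chain fragment, differed by -0.11 (SE 0.058), and Ifi30, a thiol reductase gene of endosomes, by 0.15 (SE 0.14; 0.027 to 0.27 with 1 array left out).

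In the interferon-gamma arm, 3 of 7 measured genes had a higher and 4 a lower mean in white adipose tumours. Ifng, the cytokine gene, had log2 signals of 5.40, 5.70 and 5.40 in white adipose tumours, against 5.44, 5.13 and 5.60 in non-adipose tumours, and the groups overlapped. Irf1, a transcription factor gene that interferon-gamma switches on and that acts at a Ciita promoter, differed by 0.030 (SE 0.16). The receptor gene Ifngr1 was at -0.12 (SE 0.058) without overlap, and the kinase gene Jak1 at -0.061 (SE 0.062). The T cell proteins that bind class II molecules, CD4 and LAG3, had genes at 0.28 (SE 0.21) and 0.11 (SE 0.10). Leaving out non-adipose replicate 2 put Cd4 at 0.066 and Lag3 at 0.0014, and leaving out non-adipose replicate 3 put them at 0.47 and 0.18.

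None of the 38 related genes passed in limma over all genes tested (0 of 38, adjusted p of at least 0.936 for each), and 0 had an unadjusted p under 0.05, where 3.79% of all genes did. Groups did not overlap for 2 genes with white adipose higher (Prdm1 and Marchf8) and for 2 with white adipose lower (Sppl2a and Ifngr1), where 3.34% and 3.97% of all genes did so. The median difference of the 38 was 0.012, against 0.61 for the 9 class II genes and -0.00043 for all genes.

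Markers of the cells that carry class II molecules were set beside these values. Dendritic cell markers, 9 of 10 measured, had an array mean of 6.08 to 6.42 in white adipose tumours and of 5.96 to 6.31 in non-adipose tumours, with 7 higher and 2 lower in white adipose tumours and a median difference of 0.14. Non-adipose replicate 2 was the lowest array for that mean, as it was for the chain genes. Macrophage markers, 9 of 10 measured, ran from 8.94 to 9.19 in white adipose tumours and from 9.01 to 9.27 in non-adipose tumours, with a median difference of 0.027. B cell markers, 9 of 10 measured, ran from 4.72 to 5.02 in white adipose tumours and from 4.84 to 4.99 in non-adipose tumours, with a median difference of -0.041. For mean brightness among all genes, the B cell markers lay at a median percentile of 32.7, from 14.2 (Fcer2a) to 39.3 (Cd22). The B cell surface gene Ms4a1 was at percentile 16.2.

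T cell markers, 8 of 10 measured, had array means of 6.25 to 6.63 in white adipose tumours and of 5.72 to 6.88 in non-adipose tumours, with 7 of the 8 higher in white adipose tumours and a median difference of 0.25. Their lowest array was non-adipose replicate 2 and their highest non-adipose replicate 3. Cd3g, a T cell receptor complex gene, had log2 signals of 6.76, 7.54 and 7.58 in white adipose tumours, against 6.37, 5.69 and 7.91 in non-adipose tumours. Its difference of 0.64 (SE 0.57) was the largest on the list, where Cd8b1 was at 0.024 and Cd5 at -0.011. Neutrophil markers, all 8 measured, ran from 4.79 to 5.08 in white adipose tumours and from 4.78 to 5.45 in non-adipose tumours, with a median difference of -0.22. The lymph node stroma list, 3 of 5 measured, ran from 5.83 to 5.91 in white adipose tumours and from 5.53 to 6.28 in non-adipose tumours, with a median difference of -0.15. Ptprc, the pan-leukocyte gene, differed by -0.034 (SE 0.24). Non-adipose replicate 2 was also the lowest array for the neutrophil mean (4.78), the lymph node stroma mean (5.53), Ptprc (8.49) and the mean of each related list. It was not the lowest for the macrophage and B cell means, nor for the adipocyte and colorectal epithelial means of the lists below. No marker gene passed over all genes tested (limma, 0 at an unadjusted p under 0.05), and the part of these cells in the class II values was not tested.

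The labels were also set against markers. Adipocyte markers, 9 of 10 measured, ran from 5.49 to 5.90 in white adipose tumours and from 5.57 to 5.76 in non-adipose tumours, and Adipoq, the adiponectin gene, lay at 4.10 to 4.27 in white adipose and at 4.14 in all 3 non-adipose tumours. Adipoq was the dimmest of the 9 measured adipocyte markers, at percentile 15.6 for mean brightness among all genes. The median percentile of the list was 49.6, and its brightest gene, Fabp4, was at 63.1. Fabp4 and Pparg ranged over 2.08 and 2.14 log2 units across the arrays. All 9 measured adipocyte markers overlapped between the groups. Of the 10 colorectal epithelial markers, the keratin genes Krt8 and Krt18 lay at percentiles 96.1 and 94.9 for mean brightness among all genes. Cdh1 was at percentile 66.9, Krt19 at 43.0, Lgals4 at 42.0, Cdx2 at 38.8 and Cdx1 at 34.8. The dimmest were Epcam at percentile 29.1, Krt20 at 24.8 and Vil1 at 23.3.

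**Figure D4:**
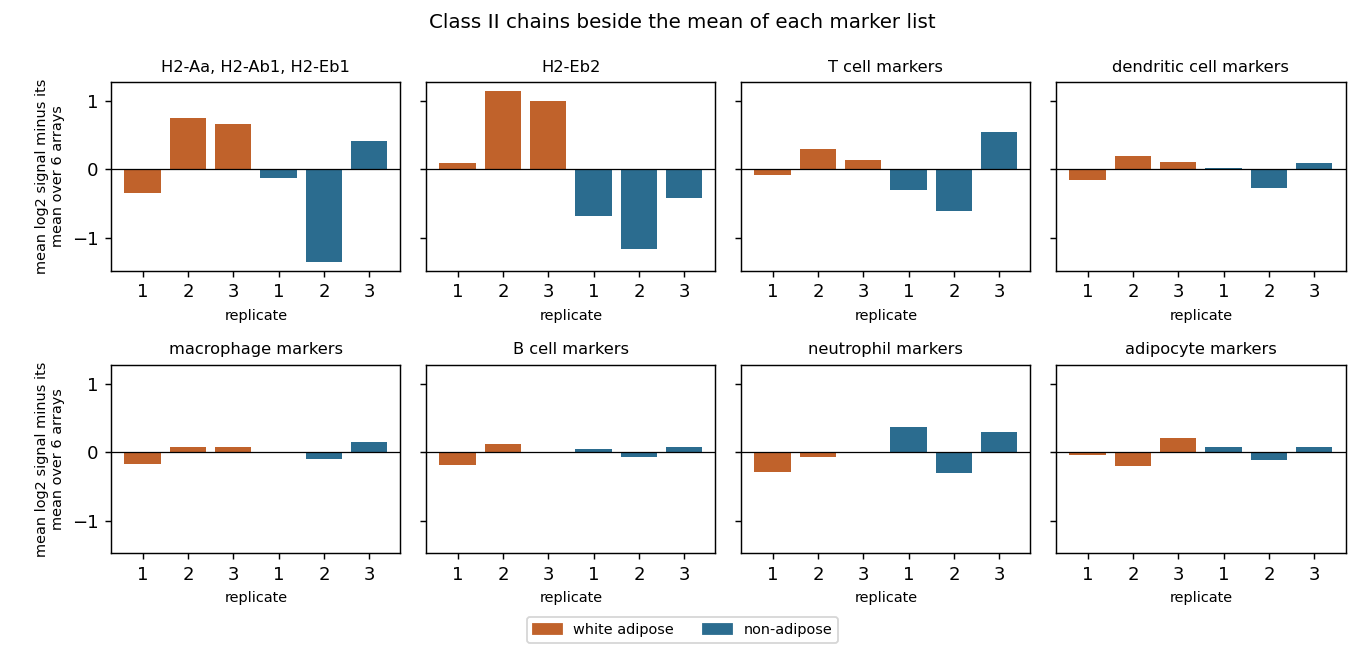
Bars give, for each of the 3 white adipose (orange) and 3 non-adipose (blue) tumours, the mean log2 signal of a group of genes minus its mean over the 6 arrays, on 1 scale for all panels. The class II chain panel and the H2-Eb2 panel span over 2 log2 units. Non-adipose replicate 2 is lowest in both, as it is in the T cell, dendritic cell and neutrophil panels. It is not lowest in the macrophage, B cell and adipocyte panels.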

How the data were processed

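Total RNA of 6 tumours was labelled with biotin by the WT PLUS kit and hybridised to Affymetrix whole-transcript arrays, per the labels' protocols. The deposited values, 41345 probe sets in 6 columns, were read as log2 signals, since the lowest was 0.973, the highest 13.6 and the array medians 5.66 to 5.69. Per the submitters' processing notes the software was Affymetrix Expression Console; the sources used here do not state its version, background correction or normalization. Arrays correlated at 0.983 to 0.995. A normalization that equalises arrays would remove a change shared by most genes, and the number of arrays limits the precision (median SE of a log2 difference 0.0972).

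Of the probe sets, 23521 had 1 gene symbol in the platform annotation, 1814 several and 16010 none; the brightest single-symbol probe set was kept per gene, leaving 22180 genes. Under R 4.3.3, limma 3.58.1 was run on all genes (lmFit, eBayes, white adipose minus non-adipose, no replicate block), with p-values adjusted by Benjamini-Hochberg over all genes. The fit was tested on simulated data. Samples were grouped by their titles. The alternatives were quantile normalization, array medians subtracted, a filter on dim genes, trend and robust moderation and array weights. The mean of all single-symbol probe sets of a gene, a replicate block and each array left out were also tried.

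The members and lists were chosen with earlier results of these data known. Named were all members, the 3 related genes per list with the smallest p, Rfx5, Ctss, Ifi30, Ifng and Irf1, the 5 genes most like H2-Aa and H2-Eb2 (predicted, clone-based, olfactory, vomeronasal, microRNA and small nucleolar symbols left out), and Ptprc, Epcam and Adipoq; other names were picked after their values were seen. Lists held 111 different genes, of which 102 were measured. Promoters are RefSeq's, in build GRCm38.p6. Windows of members on chromosome 18 were not used, while the motif counts over all windows left out no chromosome.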

Additional observations from a re-analysis of the deposited data

How the results depend on the processing

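Every one of the 9 class II genes had a higher white adipose mean under all 13 alternatives tried, and limma called 0 of all genes and 0 of the 38 related genes under each. The median class II difference of 0.61 was 0.63 under quantile normalization, 0.61 with median centring and 0.79 with array weights. It lay between 0.20 (without non-adipose replicate 2) and 0.89 with 1 array left out. H2-Eb2 was at 1.50 under quantile normalization, 1.49 with median centring and 1.70 with array weights. The dim filter, trend and robust moderation, the mean of all single-symbol probe sets and the replicate block could not change these differences. No class II gene fell under the filter, each had 1 single-symbol probe set, moderation alters only the SE, and the block was balanced. The count of genes at an unadjusted p under 0.05, 841, was 1621 with array weights, 1800 without white adipose replicate 1 and 1081 with the replicate block; with any other array left out it was 640 to 1174. Same-numbered tumours had deviations correlated at 0.142, 0.064 and 0.064 for replicates 1, 2 and 3. Those of different-numbered tumours ran from -0.182 to 0.086, most of them negative. These values do not settle whether the numbers pair the samples. The sample titles name no pairing, so none was assumed. With the replicate block 0 genes were called, as without it. Of the 15 related and 3 marker genes for which the alternatives were run, Irf4, Ifng, Irf1, Ptprc, Epcam and Adipoq changed sign with at least 1 array left out or reweighted, none being called. With no detection calls, the dim signals of H2-Eb2, H2-DMb1 and the DO genes may lie near background, which limits their differences.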
